A study of Mus musculus with 24 samples.

Results

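The sterol regulatory element-binding protein (SREBP) programme of mouse peritoneal macrophages was followed through 34 genes, matched by symbol among the 54532 features of the count table. They comprise 19 genes of the sterol arm (cholesterol synthesis, with the sterol carrier Stard4), 10 genes of the fatty acid arm and 5 regulators. All 34 passed the filter on low counts that left 14692 genes for testing. The cells were profiled by RNA sequencing in 24 libraries, 4 in each of 6 groups. M0 cells were labelled as controls, M1 cells received lipopolysaccharide (LPS) and interferon-γ, and M2 cells received interleukin-4. Each state was sampled without and with ONX-0914, an inhibitor that acts mainly on LMP7 (PSMB8), a catalytic subunit of the immunoproteasome. Per the labels, every replicate pooled peritoneal macrophages of 2 to 3 mice to 50000 cells, and the 4 replicates of a group were independent. For the mice, the strain, sex and age, and for the treatments, the doses and times, were not given in the labels used here.

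SREBPs are transcription factors made as membrane proteins of the endoplasmic reticulum. The escort protein SCAP carries them to the Golgi, where proteases release the active part, and INSIG proteins hold SCAP back when sterols are plentiful. SREBP2, encoded by Srebf2, mainly drives the genes of cholesterol synthesis, and the SREBP1c form encoded by Srebf1 mainly drives those of fatty acid synthesis. Both act together with NF-Y, which binds CCAAT boxes, and with Sp1, which binds GC boxes. In macrophages the pathway sets membrane cholesterol and unsaturated fatty acids and is known to be remodelled by inflammatory stimuli. RNA counts report transcript levels only and do not show SREBP cleavage.

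RefSeq promoter windows of build GRCm38.p6, 250 bases before to 50 after each start, were listed for 27 of the 34 genes. The letters CCAAT stood in a window of 14 of 15 sterol genes (93.3%), 3 of 7 fatty acid genes (42.9%) and 4 of 5 regulators, against 41.1% of the 27025 genes in the promoter table. The GC box letters GGGCGG stood in 14 of 15 sterol genes, 3 of 7 fatty acid genes and 5 of 5 regulators, against 38.2% of all genes. Counted by window, CCAAT stood in 14 of 18 sterol, 3 of 7 fatty acid and 5 of 10 regulator windows, against 37.4% of all windows. For GGGCGG these were 15 of 18, 3 of 7 and 8 of 10, against 35.7%. The sterol regulatory element letters TCACNCCAC were found in 1 member, Hmgcs1, and in 1.44% of all genes. The E-box form TCACGTGA was found in no member and in 1.12% of all genes. Each motif was searched on both strands, a gene with several starts counted once if any of its windows held the letters, and a match is a description, not a binding site. The 250 bases before the start are shown for 6 genes, 4 of the sterol arm and 2 of the fatty acid arm, because their transcripts took different courses in the results. Each reads 5′ to 3′ along the gene's strand, and capitals mark CCAAT or TCACNCCAC on either strand, so that ATTGG is CCAAT on the other strand.
Hmgcs1: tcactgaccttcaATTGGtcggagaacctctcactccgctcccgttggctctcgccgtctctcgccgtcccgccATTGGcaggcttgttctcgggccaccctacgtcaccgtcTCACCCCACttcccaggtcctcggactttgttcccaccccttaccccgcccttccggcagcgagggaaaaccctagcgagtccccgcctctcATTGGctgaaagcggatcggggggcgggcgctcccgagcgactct
Mvd: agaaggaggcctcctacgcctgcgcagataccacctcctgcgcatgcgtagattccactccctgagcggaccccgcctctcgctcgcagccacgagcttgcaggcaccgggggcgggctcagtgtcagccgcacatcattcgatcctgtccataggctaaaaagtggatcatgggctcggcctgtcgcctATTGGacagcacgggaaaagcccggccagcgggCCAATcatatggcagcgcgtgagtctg
Ebp: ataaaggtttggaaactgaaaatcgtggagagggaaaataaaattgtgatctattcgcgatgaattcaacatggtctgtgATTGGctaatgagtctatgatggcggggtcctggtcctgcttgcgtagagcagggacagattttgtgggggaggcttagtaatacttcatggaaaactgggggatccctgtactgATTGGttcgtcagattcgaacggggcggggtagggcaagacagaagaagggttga
Dhcr7: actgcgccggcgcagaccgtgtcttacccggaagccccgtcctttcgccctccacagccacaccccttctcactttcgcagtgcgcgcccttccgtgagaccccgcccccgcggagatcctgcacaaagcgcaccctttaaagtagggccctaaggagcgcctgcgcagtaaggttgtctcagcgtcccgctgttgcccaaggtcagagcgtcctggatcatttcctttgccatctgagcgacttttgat
Fasn: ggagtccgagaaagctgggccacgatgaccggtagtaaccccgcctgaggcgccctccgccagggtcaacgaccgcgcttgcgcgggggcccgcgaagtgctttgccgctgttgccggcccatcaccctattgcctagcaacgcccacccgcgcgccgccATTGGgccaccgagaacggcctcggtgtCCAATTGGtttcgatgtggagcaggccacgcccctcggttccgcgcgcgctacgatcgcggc
Lpin1: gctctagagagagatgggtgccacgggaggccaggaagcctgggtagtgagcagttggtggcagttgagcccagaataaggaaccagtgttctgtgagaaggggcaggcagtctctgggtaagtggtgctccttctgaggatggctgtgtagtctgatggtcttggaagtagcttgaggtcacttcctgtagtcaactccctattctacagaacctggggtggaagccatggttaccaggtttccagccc
The Hmgcs1 stretch lies at chr13:119690101-119690350 on the plus strand and holds 3 CCAAT boxes and the TCACNCCAC element. The Mvd stretch at chr8:122443423-122443672 and the Ebp stretch at chrX:8193513-8193762, both on the minus strand, hold 2 CCAAT boxes each. The Dhcr7 stretch, at the outermost of its 3 listed starts, chr7:143822917-143823166 on the plus strand, holds neither motif. The window of the innermost start, chr7:143829964-143830263, holds 2 CCAAT boxes. The Fasn stretch at chr11:120824548-120824797 on the minus strand holds 3 CCAAT boxes. The Lpin1 stretch at chr12:16610967-16611216 on the minus strand holds none of the 4 motifs searched.

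Total counts ran from 18230924 to 22882972 per library. M1 replicate 2 stood apart: mitochondrial genes took 0.2997% of its counts, against 0.962% to 1.78% in the other 23 libraries, and results whose call it decides are given with and without it. Macrophage genes were abundant in every group (Lyz2 at 6193 to 10496 CPM by group mean, in TMM-scaled counts-per-million, Csf1r at 179 to 744 CPM), although Timd4, a gene of resident peritoneal macrophages, was at 0.180 CPM in M0. The summed level of the 10 macrophage markers ran from 12636 to 14668 CPM in M0 and 10587 to 11747 CPM with ONX-0914, from 12039 to 14773 and 9371 to 9852 CPM in M1, and from 12483 to 13782 and 10094 to 11341 CPM in M2. Of these 10 markers, 3 fell and 2 rose with ONX-0914 in M0, 7 fell and 1 rose in M1, and 5 fell and 1 rose in M2, with median log2 changes of 0.0046, -0.62 and -0.27. The summed level of 11 B cell markers, mostly Cd22, was also lower with the inhibitor (94.7 to 98.8 against 56.0 to 61.2 CPM in M0, 64.8 to 76.3 against 37.6 to 40.7 CPM in M1, 106 to 113 against 57.6 to 65.2 CPM in M2). Of its 8 tested genes, 8 fell in M0, 7 in M1 and 7 in M2, with median log2 changes of -1.92, -1.99 and -1.95. Mesothelial and fibroblast genes summed to 437 to 696 CPM over all libraries, and of the 7, with ONX-0914, 0 were called in M0, 2 fell in M1, and 1 rose and 1 fell in M2. In M1 against M0, 1 of them rose and 4 fell. Of all genes tested, 11.4% fell and 9.54% rose with ONX-0914 in M0, 27.7% and 16.6% in M1, and 18.8% and 17.6% in M2. For M1 against M0 these shares were 34.2% and 34.6%. Markers of T and NK cells, mast cells and adipocytes summed to at most 4.06 CPM in any library, with the adipocyte gene Adipoq detected at 2.64 CPM in M2 and 3.58 CPM in M2 with ONX-0914. Neutrophil markers summed to at most 12.1 CPM, with S100a9 and Ly6g at 0 in every library, and dendritic cell markers to at most 12.6 CPM. The part of these differences in the results below was not tested, and in bulk RNA fewer cells of a type and less RNA per cell cannot be told apart.

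Levels were ranked in M0 cells as CPM per kilobase of exon, so that genes of different length could be set side by side. The length joined all annotated exons of a gene and was not that of a transcript, so the ranks depend on the annotation. Per kilobase of exon, the highest level was that of Acly, the ATP citrate lyase that makes cytosolic acetyl-CoA, at 37.6 ± 1.12 CPM per kb (SD, n = 4). Next came the stearoyl-CoA desaturase gene Scd2 at 28.7 ± 2.96 and by Mvd, the diphosphomevalonate decarboxylase gene, at 26.2 ± 0.517 CPM per kb, whose spreads overlap. Between these ends lay, among others, Insig1 at 24.7, Msmo1 at 22.7, Srebf2 at 19.8, Sqle at 10.9, Fasn at 5.56, Lpin1 at 4.55 and Elovl6 at 1.72 CPM per kb. The lowest were Acss2, an acetyl-CoA synthetase gene, at 0.499 ± 0.0960 and Fdps, the farnesyl diphosphate synthase gene, at 0.392 ± 0.0596 CPM per kb. Fdps shares 26.7% of its exon bases with the gene model Gm43738 on the same strand, so its level is uncertain. Gm43738 itself held 0 to 3 counts per group. Fdft1 shares 18.3% of its exon bases with the gene Ctsb on the other strand (16478 to 17908 CPM by group mean), and Tm7sf2 shares 12.1% with Vps51. Scap and Hmgcs1 share 13.2% and 12.1% with gene models on the other strand. The strand setting of the counting is unknown here, so reads of such pairs may not be fully separated. Scd2 and Scd1 have close paralogues, of which Scd3 and Scd4 held at most 0.201 CPM in any library.

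**Figure D1:**
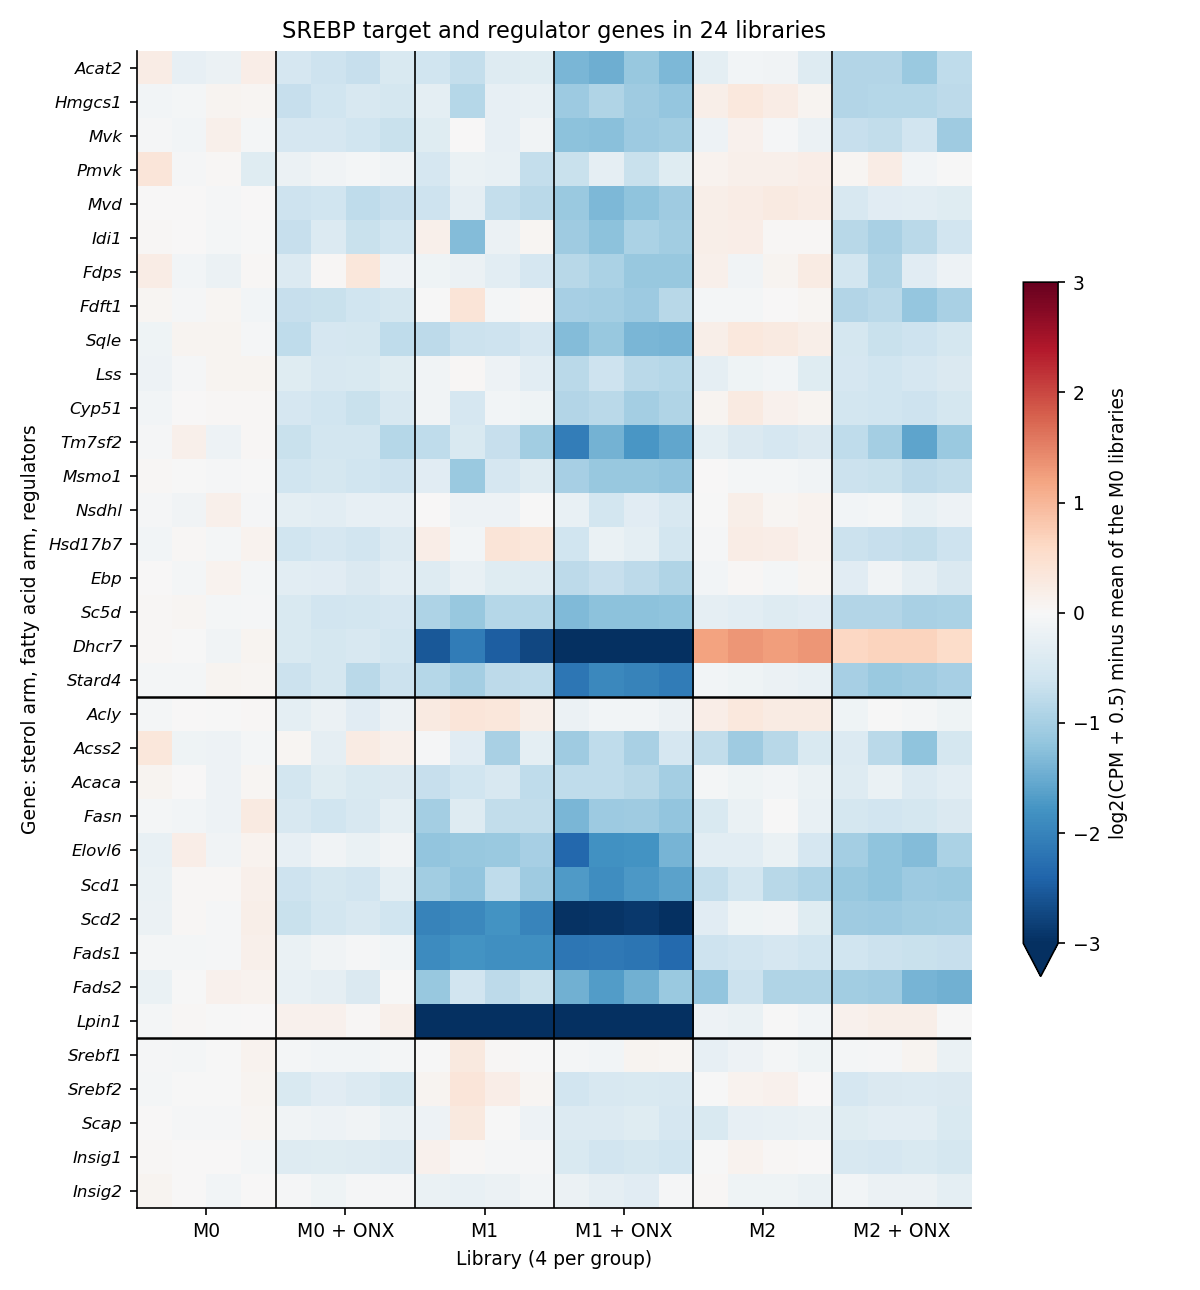
Level of each of the 34 genes (rows: sterol arm, fatty acid arm, regulators) in each of the 24 libraries (columns, 4 per group), as log2(CPM + 0.5) minus the mean of the 4 M0 libraries; red is higher, blue is lower and the darkest blue includes values below the end of the scale. The 3 ONX-0914 blocks are bluer than their untreated neighbours over most of the sterol rows, Dhcr7 is blue in M1 and red in M2, and Lpin1 is darkest in M1.

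ONX-0914 lowered most of the programme in all 3 states. In M0, 24 of the 34 genes fell and 0 rose, where 11.4% of all genes tested fell and 9.54% rose. In M1, 29 fell and 1 rose, where 27.7% of all genes fell and 16.6% rose. In M2, 26 fell and 1 rose, where 18.8% of all genes fell and 17.6% rose. The 4 treated libraries all lay below the 4 untreated ones for 25 members in M0 (14.6% of all genes), 26 in M1 (22.2%) and 24 in M2 (20.5%), and all above for 0, 1 (13.9%) and 0. A gene was called when edgeR's quasi-likelihood test gave a Benjamini-Hochberg adjusted p under 0.05 over all genes tested. In the sterol arm 17 of 19 genes fell in M0, 18 in M1 and 18 in M2, with median log2 changes of -0.58, -0.68 and -0.72. In the fatty acid arm 5, 8 and 6 of 10 genes fell and 0, 1 and 1 rose, with medians of -0.25, -0.49 and -0.32. The medians over all genes tested were -0.00082, -0.081 and -0.0012. When the M1 libraries with and without inhibitor were fitted alone, the whole table's split in M1 moved from 2438 higher and 4076 lower to 2481 higher and 2303 lower, and the sterol median became -0.59. Without M1 replicate 2, the counts of members in M1 were the same, 29 lower and 1 higher, and the sterol median was -0.80. In that fit 4230 of 14899 genes were lower and 2574 higher.

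The 2 arms were set side by side through each library's median over the genes of an arm, as log2(CPM + 0.5) relative to the M0 mean of each gene. In M0 the sterol arm went from 0.0079 ± 0.026 without to -0.53 ± 0.014 with ONX-0914 (SD, n = 4), and the fatty acid arm from 0.0056 ± 0.072 to -0.27 ± 0.10. In M1 the sterol arm went from -0.38 ± 0.062 to -1.09 ± 0.030 and the fatty acid arm from -0.93 ± 0.11 to -1.55 ± 0.19. In M2 the sterol arm went from 0.053 ± 0.052 to -0.63 ± 0.045 and the fatty acid arm from -0.30 ± 0.12 to -0.69 ± 0.13. Treated and untreated libraries did not overlap in either arm in any state. The spread between libraries was wider for the fatty acid arm, whose median rests on 10 genes. No test was made of these medians, because the members were chosen with earlier results known.

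**Figure D2:**
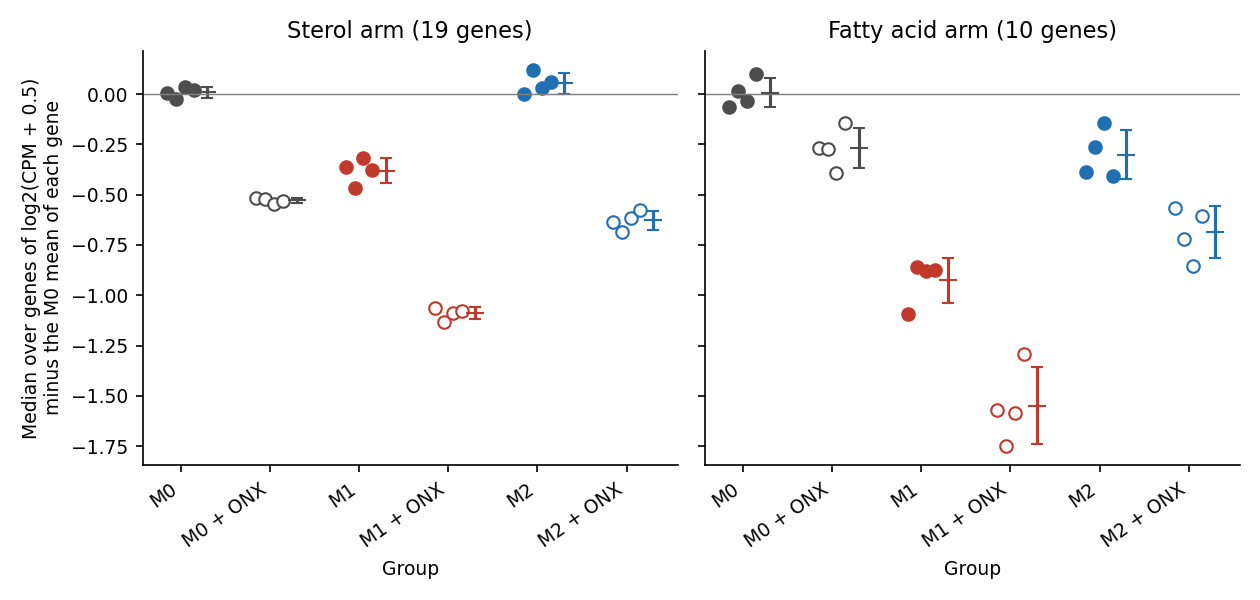
Median over the genes of each arm (left, 19 sterol genes; right, 10 fatty acid genes) of log2(CPM + 0.5) minus each gene's M0 mean, for each library (points; open with ONX-0914), with the group mean and SD (n = 4) beside them. In the sterol arm the 4 libraries with inhibitor lie below the 4 without it in every state (for example -0.55 to -0.52 against -0.027 to 0.033 in M0), and in the fatty acid arm the M1 libraries lie lowest.

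The first steps of the sterol arm build mevalonate and isoprenoid units. Hmgcs1, which makes HMG-CoA, was at 73.7, 75.2, 82.2 and 81.5 CPM in M0 and 47.8, 51.6, 55.4 and 54.0 CPM in M0 with ONX-0914. The groups did not overlap, and the log2 change was -0.58 ± 0.091 (SE; edgeR adjusted p = 3.0e-05). In M2 the 4 libraries ran from 82.0 to 97.5 CPM without and from 42.5 to 45.3 CPM with the inhibitor, a log2 change of -1.05 ± 0.092 (edgeR adjusted p = 6.8e-10). In M1 they were at 63.9, 43.1, 66.1 and 67.2 CPM without and 36.3, 41.9, 37.3 and 34.4 CPM with it, again without overlap, although M1 replicate 2 lay close to the treated libraries. Mvd, which makes isopentenyl diphosphate, fell from 48.8 ± 0.961 to 30.4 ± 1.56 CPM in M0 (SD, n = 4), a log2 change of -0.68 ± 0.077, and by -0.60 in both M1 and M2. Acat2, which makes acetoacetyl-CoA, and Mvk, the mevalonate kinase gene, fell in all 3 states, with log2 changes of -0.60, -0.87 and -0.72 and of -0.58, -1.02 and -0.72. Idi1, the isopentenyl diphosphate isomerase gene, fell by 0.60, 0.89 and 0.93 on the log2 scale in M0, M1 and M2. In M1 its libraries overlapped, because M1 replicate 2 was at 8.10 CPM against 18.2 to 23.1 CPM in the other 3, and without that library the change was -1.12. Pmvk, the phosphomevalonate kinase gene, passed the test in no state (log2 changes of -0.14, -0.10 and -0.10). Fdps, at 0.562 to 1.80 CPM by group mean, fell in M1 (-1.15 ± 0.28) and M2 (-0.76 ± 0.23) and was at -0.04 ± 0.21 in M0.

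The squalene steps commit the pathway to sterols. Sqle (ENSMUSG00000022351, chromosome 15, 59315077 to 59331192), the squalene epoxidase gene, was at 55.2, 64.1, 63.6 and 59.1 CPM in M0 and 35.5, 42.6, 41.7 and 35.2 CPM with ONX-0914. In M1 it was at 34.9, 38.8, 39.2 and 42.2 CPM without and 24.06, 27.29, 23.01 and 22.70 CPM with the inhibitor. In M2 it was at 68.8, 75.1, 73.2 and 68.7 CPM without and 41.7, 38.1, 39.2 and 41.5 CPM with it. In each state the highest treated library was below the lowest untreated one, and the log2 changes were -0.64 ± 0.071, -0.68 ± 0.077 and -0.83 ± 0.071 (edgeR adjusted p of 1.5e-07, 4.2e-08 and 3.8e-10). Fdft1, the squalene synthase gene, fell by 0.63, 1.09 and 0.96 on the log2 scale. Lss, which closes squalene epoxide to lanosterol, fell by 0.43, 0.65 and 0.31.

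The later enzymes turn lanosterol into cholesterol. Cyp51, the lanosterol demethylase gene, fell from 79.4 ± 2.89 to 53.5 ± 2.96 CPM in M0, from 69.0 ± 8.84 to 42.3 ± 2.54 CPM in M1 and from 87.4 ± 5.49 to 53.1 ± 1.43 CPM in M2 (SD, n = 4). These are log2 changes of -0.57, -0.71 and -0.72. Msmo1, the methylsterol monooxygenase gene and the highest of the later enzymes per kilobase in M0 (22.7 CPM per kb, or 139 ± 3.07 CPM), changed by -0.59, -0.55 and -0.66. Its M1 libraries overlapped, because M1 replicate 2 was at 63.5 CPM against 98.4 to 109 CPM in the other 3. Tm7sf2, a sterol reductase gene, fell by 0.70, 1.12 and 0.74, and Hsd17b7, which reduces the 3-keto group, fell by 0.54, 0.65 and 0.83. In M0 and M2 the smallest falls in this stretch were those of Nsdhl, the sterol dehydrogenase gene (-0.29, -0.32 and -0.22), and Ebp, the sterol isomerase gene (-0.36, -0.47 and -0.28). The call of Nsdhl in M2 was lost without M2 replicate 2 (-0.18) or M2 with ONX-0914 replicate 3 (-0.19), and its call in M1 was lost when the M1 libraries were fitted alone (-0.23). Sc5d, the lathosterol oxidase gene, fell by 0.52 and 0.60 in M0 and M2 and by 0.31 in M1, where the call was lost with the M1 libraries alone (-0.22).

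Dhcr7 and Stard4 had the largest falls of the sterol arm with ONX-0914 in M1. Dhcr7 (ENSMUSG00000058454, chromosome 7, 143823145 to 143848410) encodes the reductase that makes cholesterol from 7-dehydrocholesterol. It was at 9.04, 12.5, 9.53 and 7.87 CPM in M1 and at 3.85, 3.24, 3.85 and 4.21 CPM in M1 with the inhibitor, without overlap and with a log2 change of -1.35 ± 0.11 (edgeR adjusted p = 1.3e-10). The changes in M0 and M2 were -0.51 ± 0.072 and -0.65 ± 0.069. Stard4, which carries sterols between membranes, was at 19.4, 17.4, 20.3 and 20.8 CPM in M1 and at 7.50, 8.88, 8.42 and 7.94 CPM with the inhibitor. Its log2 change was -1.25 ± 0.079 in M1 (edgeR adjusted p = 6.3e-13), -0.66 ± 0.068 in M0 and -0.90 ± 0.070 in M2.

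**Figure D3:**
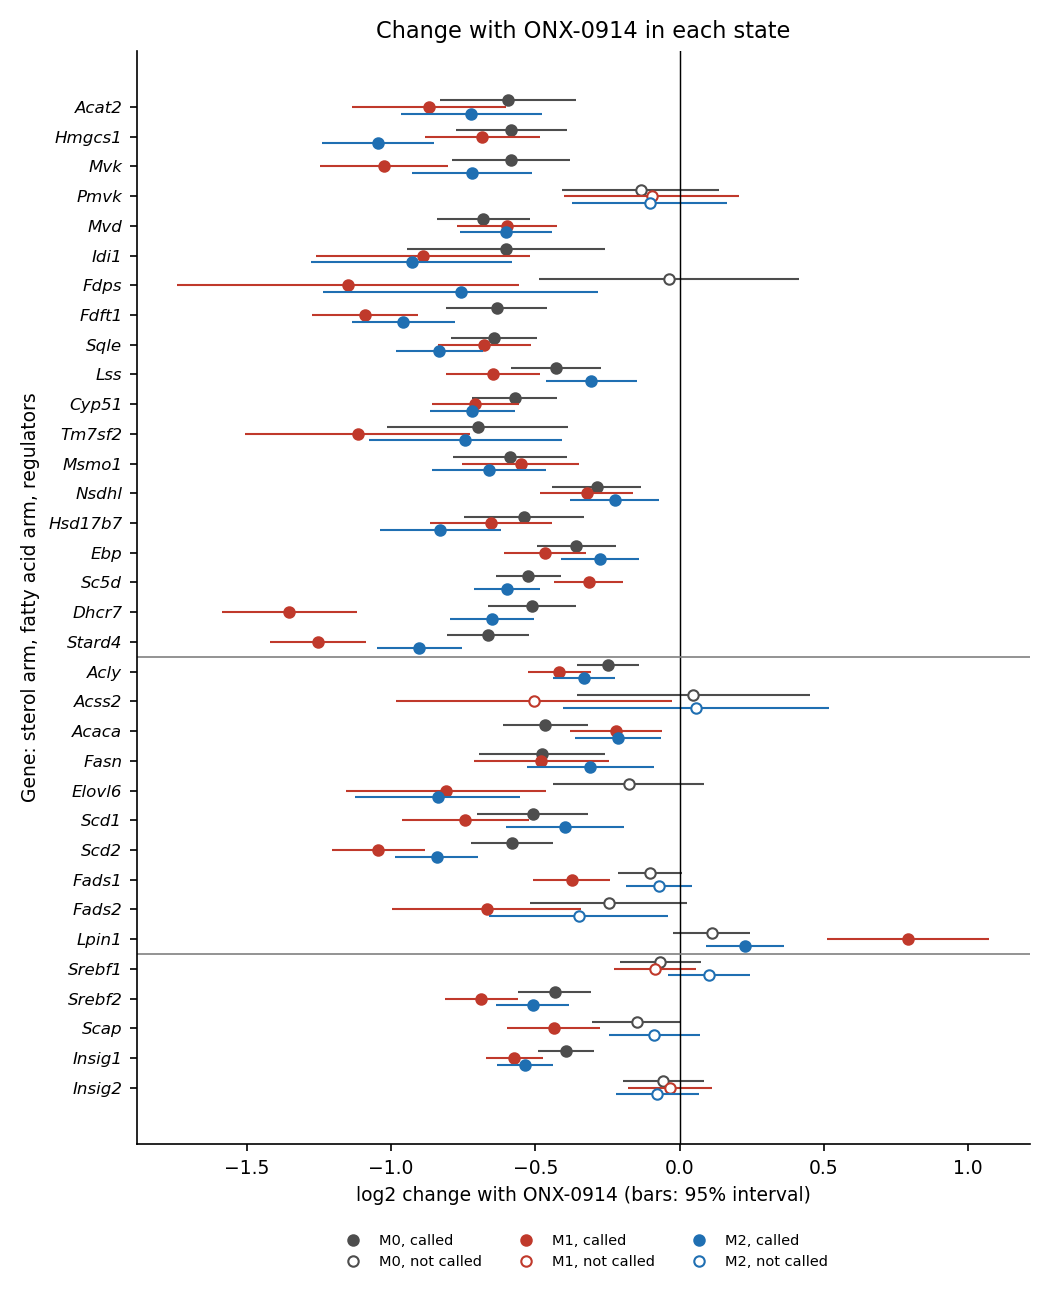
log2 change with ONX-0914 (x axis, bars are 95% intervals) of each of the 34 genes in M0 (grey), M1 (red) and M2 (blue); filled points passed the test and open points did not. Most sterol points are filled and lie left of 0, Pmvk, Acss2, Srebf1 and Insig2 have open points in all 3 states, and Lpin1 lies right of 0.

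The fatty acid arm makes acetyl-CoA into saturated, monounsaturated and polyunsaturated fatty acids. Acly was at 191 to 204 CPM in M0 and 156 to 177 CPM with ONX-0914, and its log2 change was -0.25, -0.42 and -0.33 in M0, M1 and M2, without overlap in any state. Acaca, the acetyl-CoA carboxylase gene, fell by 0.46 in M0 (edgeR adjusted p = 2.0e-05). Its changes of -0.22 in M1 and -0.21 in M2 passed the test, but the call in M1 was lost without replicate 3 of M1 (-0.16) and without replicate 4 of M1 with ONX-0914 (-0.17). That call was also lost with the M1 libraries alone (-0.13) and without the count filter (-0.20). In M2 it was lost without M2 replicate 1 (-0.19), M2 with ONX-0914 replicate 1 (-0.19) or M2 with ONX-0914 replicate 3 (-0.18). Fasn, the fatty acid synthase gene, was at 57.8, 57.4, 54.8 and 73.5 CPM in M0 and 43.1, 39.9, 43.3 and 49.1 CPM with ONX-0914 (log2 change -0.48 ± 0.10, edgeR adjusted p = 0.0014). It fell by 0.48 in M1 and by 0.31 in M2, where the libraries overlapped and the call was lost without M2 replicate 3 (-0.24) or M2 with ONX-0914 replicate 2 (-0.29).

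The desaturase genes Scd1 and Scd2, which make oleic acid from stearic acid, fell in all 3 states. Scd2 (ENSMUSG00000025203, chromosome 19, 44293674 to 44306864) was at 138, 159, 153 and 177 CPM in M0 and 98.3, 107, 111 and 104 CPM with the inhibitor. In M1 it was at 38.6, 40.4, 44.6 and 39.1 CPM without and 19.46, 19.97, 20.58 and 18.97 CPM with it. In M2 it was at 124, 144, 146 and 122 CPM without and 74.0, 72.9, 75.4 and 77.0 CPM with it. The groups did not overlap in any state, and the log2 changes were -0.58 ± 0.068, -1.04 ± 0.077 and -0.84 ± 0.069. Scd1 changed by -0.51, -0.74 and -0.40. Elovl6, which elongates palmitic acid, fell by 0.81 in M1 and 0.84 in M2 and was at -0.18 ± 0.12 in M0. Fads1, a front-end desaturase gene of polyunsaturated fatty acid synthesis, fell in M1 (-0.37 ± 0.063, edgeR adjusted p = 2.1e-05) and did not pass the test in M0 (-0.10) or M2 (-0.07). Its neighbour in the same pathway, Fads2, fell in M1 (-0.67) and was at -0.25 in M0 and -0.35 in M2, where 9 alternative analyses called it. Acss2 passed the test in no state, although 3 alternative analyses called it lower in M1 (-0.69 to -0.50).

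Lpin1 was the only member called higher with the inhibitor. It encodes a phosphatidate phosphatase of triglyceride and phospholipid synthesis (ENSMUSG00000020593, chromosome 12, 16535669 to 16610966). It was at 1.27, 1.80, 2.19 and 1.76 CPM in M1 and at 3.30, 2.94, 3.26 and 2.73 CPM in M1 with ONX-0914, without overlap and with a log2 change of 0.79 ± 0.13 (edgeR adjusted p = 2.0e-05). In M2 it was at 39.5, 38.2, 44.0 and 41.7 CPM without and 48.1, 49.5, 49.9 and 43.9 CPM with the inhibitor, a log2 change of 0.23 ± 0.064 with 1 treated library inside the untreated range. In M0 the change was 0.11 ± 0.064 and did not pass the test.

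Of the regulators, Srebf2 and Insig1 fell in all 3 states. Srebf2 (ENSMUSG00000022463, chromosome 15, 82147181 to 82205379) was at 136, 141, 141 and 151 CPM in M0 and 104, 113, 107 and 98.4 CPM with ONX-0914. In M1 it was at 151, 185, 164 and 148 CPM without and 96.0, 102, 103 and 102 CPM with it, and in M2 at 140, 152, 157 and 144 against 101, 105, 107 and 105 CPM. The treated and untreated libraries did not overlap in any state, and the treated groups lay close together at means of 106, 101 and 104 CPM. The log2 changes were -0.43 ± 0.060, -0.69 ± 0.061 and -0.51 ± 0.060 (edgeR adjusted p of 5.3e-06, 4.8e-10 and 1.3e-07). Insig1, itself a known SREBP target, fell by 0.39, 0.57 and 0.54 on the log2 scale, from 73.1 to 83.3 CPM over all untreated libraries to 50.2 to 58.7 CPM over all treated ones. Srebf1, whose count sums all its isoforms, was at -0.07 ± 0.067, -0.09 ± 0.068 and 0.10 ± 0.067 and passed the test in no state. Insig2 was at -0.06, -0.03 and -0.08 and was also not called. Scap fell in M1 (-0.44 ± 0.076, or -0.33 without M1 replicate 2) and did not pass the test in M0 (-0.15) or M2 (-0.09).

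**Figure D4:**
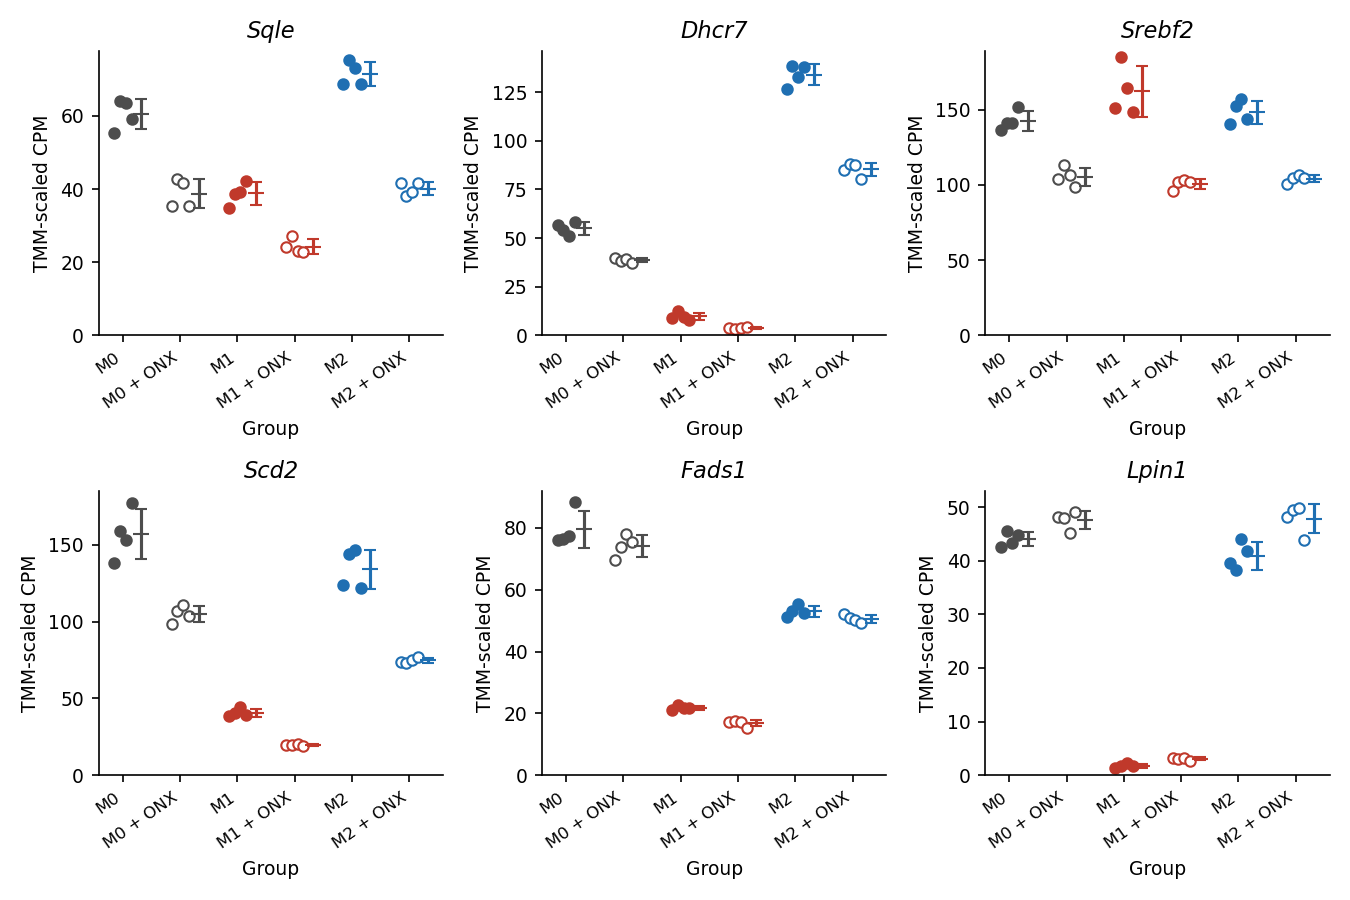
Level of 6 genes in every library (y axis, TMM-scaled CPM from 0; points, open with ONX-0914), with the group mean and SD (n = 4) beside them. Sqle, Srebf2 and Scd2 are lower with ONX-0914 in all 3 states, Dhcr7 without inhibitor lies at 7.87 to 12.5 CPM in M1 and 127 to 139 CPM in M2, and Lpin1 lies at 1.27 to 3.30 CPM in the 8 M1 libraries.

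Polarization without the inhibitor was compared next. M1 against M0 lowered 21 members and raised 3, where 34.2% of all genes fell and 34.6% rose. In the sterol arm 12 of 19 genes fell and 1 rose, with a median log2 change of -0.38, and in the fatty acid arm 8 of 10 fell and 1 rose, with a median of -0.93. The median over all genes tested was -0.020. M2 against M0 lowered 10 members and raised 4, where 17.5% of all genes fell and 18.7% rose. The libraries did not overlap for 19 members lower and 1 higher in M1 (28.9% and 29.3% of all genes) and for 8 lower and 5 higher in M2 (17.7% and 20.1%). In M2 the sterol arm had 3 genes higher and 3 lower with a median of 0.087 (0.019 without M0 replicate 4 and 0.039 without M2 replicate 2), and the fatty acid arm had 1 higher and 6 lower with a median of -0.29. Without M1 replicate 2 the counts of M1 against M0 were 21 lower and 3 higher, where 5144 of 14899 genes were lower and 5300 higher. M2 against M0 does not use that library but shares its filter, scaling and estimate of the spread. Its member counts were 13 lower and 6 higher. Over the 14899 genes of that fit, 3023 were lower and 3325 higher in M2 against M0. In the main fit these were 2571 and 2744 of 14692. The members gained in M2 against M0 were Hmgcs1 (0.20), Cyp51 (0.14), Stard4 (-0.16), Fasn (-0.23) and Srebf1 (-0.15). In the same fit Scap was called lower with ONX-0914 in M0 (-0.15). These comparisons use the same untreated libraries as the inhibitor comparisons above, so the changes of a gene are given side by side only.

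Dhcr7 took opposite directions in the 2 polarized states. It was at 56.8, 54.2, 51.0 and 58.3 CPM in M0, at 7.87 to 12.5 CPM in M1 and at 127, 139, 133 and 138 CPM in M2. No library of one state lay in the range of another. The log2 changes were -2.51 ± 0.085 in M1 (edgeR adjusted p = 4.2e-20) and 1.28 ± 0.071 in M2 (edgeR adjusted p = 3.7e-14). In M2 with ONX-0914 Dhcr7 was at 80.5 to 88.1 CPM, still above every M0 library. In the rest of the sterol arm, Sc5d fell by 0.94 in M1 and 0.33 in M2 and Stard4 by 0.87 in M1, while Sqle and Mvd fell in M1 (-0.64 and -0.60) and rose in M2 (0.24 ± 0.070 and 0.23 ± 0.075). Tm7sf2, Msmo1, Acat2, Pmvk, Hmgcs1 and Ebp fell in M1 by 0.80, 0.56, 0.53, 0.44, 0.38 and 0.34. Without M1 replicate 2 the fall of Hmgcs1 was -0.25, and that of Cyp51 (-0.20) was -0.11 and was no longer called. Hsd17b7 was called higher in M1 (0.23), but the call was lost without M0 replicate 1, 2 or 3 (0.21, 0.24 and 0.21) or M1 replicate 3 or 4 (0.17 and 0.19). Fdft1, Mvk, Idi1, Fdps, Lss and Nsdhl did not pass the test in M1, with log2 changes from -0.38 to 0.09. Without M1 replicate 2, Mvk (-0.25) and Lss (-0.19) were called lower, and the change of Idi1 went from -0.22 to 0.011. In M2, Tm7sf2 (-0.45) and Lss (-0.21) were also called lower, Tm7sf2 not without M0 replicate 2 (-0.39) and Lss not without M0 replicate 3, M0 replicate 4, M2 replicate 1 or M2 replicate 4 (-0.19, -0.18, -0.19 and -0.17).

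**Figure D5:**
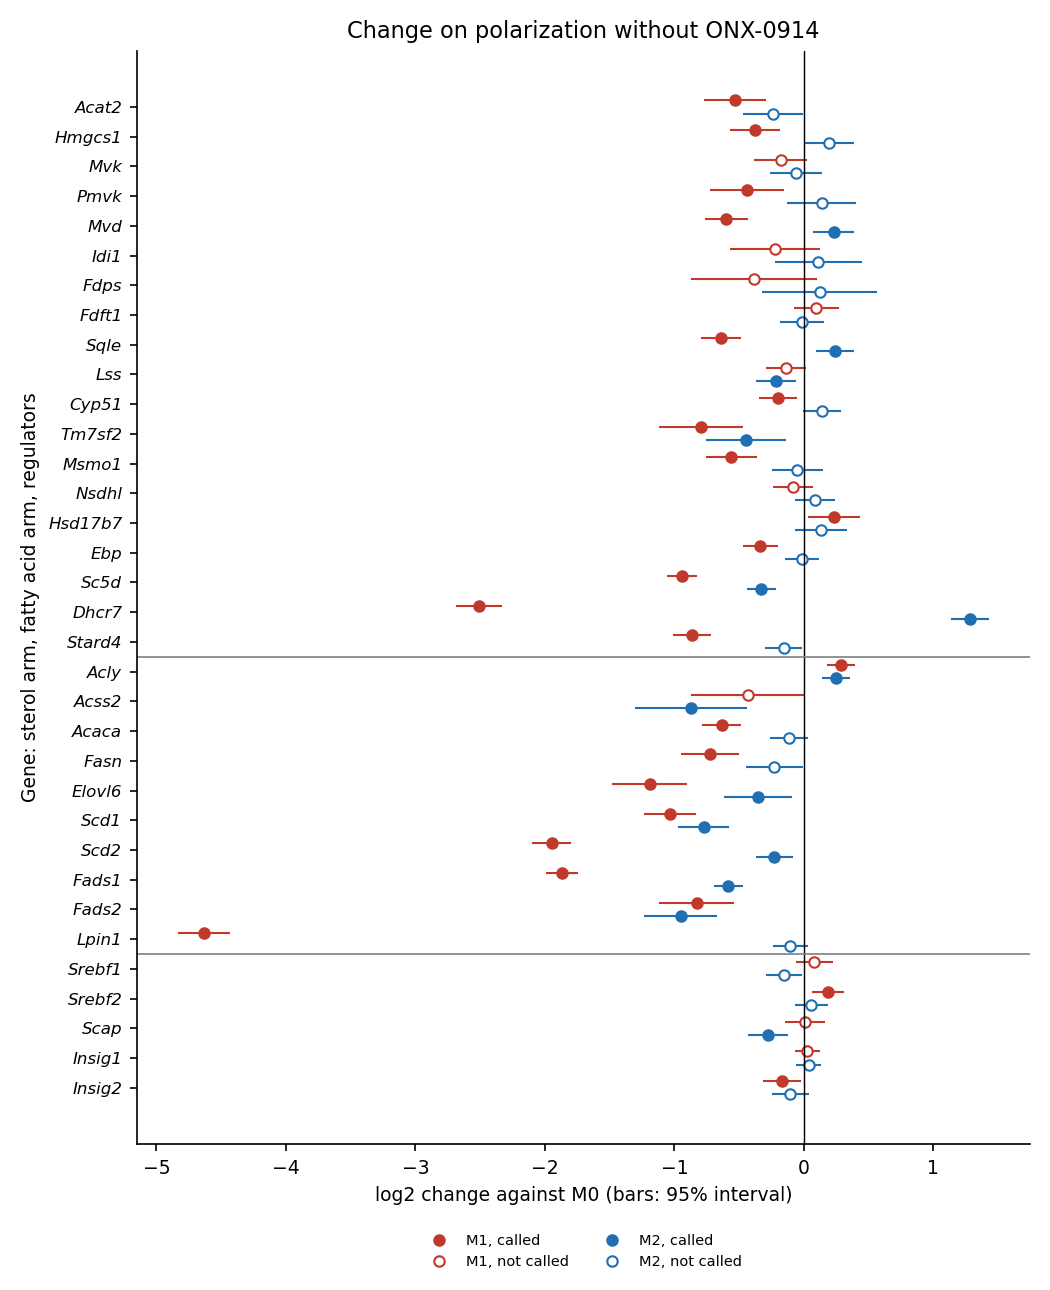
log2 change of each of the 34 genes in M1 (red) and M2 (blue) against M0, all without ONX-0914 (x axis, bars are 95% intervals); filled points passed the test and open points did not. Lpin1, Dhcr7, Scd2 and Fads1 lie farthest left in M1 (-4.63, -2.51, -1.95 and -1.87), and Dhcr7 is alone far to the right in M2 (1.28).

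In the fatty acid arm the largest change was that of Lpin1 in M1. Lpin1 was at 42.5, 45.5, 43.4 and 44.7 CPM in M0 and at 1.27 to 2.19 CPM in M1, a log2 change of -4.63 ± 0.097 (edgeR adjusted p = 7.9e-25), and was at -0.11 ± 0.064 in M2. Scd2 fell by 1.95 in M1, from 157 ± 16.2 to 40.7 ± 2.72 CPM (SD, n = 4), and by 0.23 in M2, where the call was lost without M0 replicate 4 (-0.16). Fads1 (ENSMUSG00000010663, chromosome 19, 10182888 to 10196877) was at 76.1, 76.3, 77.3 and 88.4 CPM in M0, 21.1, 22.6, 21.7 and 21.7 CPM in M1 and 51.1, 53.2, 55.4 and 52.4 CPM in M2. Its 3 groups did not overlap, and the log2 changes were -1.87 ± 0.058 and -0.58 ± 0.054. Elovl6, Scd1, Fads2, Fasn and Acaca fell in M1 by 1.19, 1.03, 0.83, 0.72 and 0.64. In M2, Scd1 and Fads2 fell by 0.77 and 0.95 and Acss2 by 0.87. Elovl6 was called in M2 (-0.35), but not without M0 replicate 2 (-0.28), M0 replicate 4 (-0.32), M2 replicate 1 (-0.36) or M2 replicate 4 (-0.30). Fasn and Acaca did not pass the test in M2 (-0.23 and -0.12). Acly went the other way in both states: it was at 191, 202, 197 and 204 CPM in M0, 241, 254, 250 and 224 CPM in M1 and 226, 246, 237 and 234 CPM in M2, with log2 changes of 0.29 ± 0.051 and 0.25 ± 0.051.

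The regulators moved little on polarization. Srebf2 was called higher in M1 (0.19 ± 0.060, or 0.12 without M1 replicate 2, with overlapping libraries), and the call was lost with the M0 and M1 libraries fitted alone (0.14). Insig2 was called lower in M1 (-0.17), and the call was lost without M0 replicate 1 or 2 (-0.14 and -0.17) or M1 replicate 1, 2 or 3 (-0.16, -0.15 and -0.17). Scap fell in M2 (-0.28 ± 0.074) without overlap. Srebf1 and Insig1 passed the test in neither state, with log2 changes from -0.15 to 0.08.

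Whether the inhibitor's effect differed between states was tested as a difference of the log2 changes. Between M1 and M0 it differed for 10 of 34 members, where it differed for 19.3% of all genes. Between M2 and M0 it differed for 2 members against 6.17% of all genes, and between M1 and M2 for 7 against 13.5%. Most members thus did not pass in any of these tests. Dhcr7 fell more in M1 than in M0 (difference -0.84 ± 0.13, edgeR adjusted p = 4.1e-05) and more in M1 than in M2 (-0.70 ± 0.13). Stard4, Fdft1 and Scd2 also fell more in M1 than in M0, by differences of -0.59, -0.46 and -0.46, and Lpin1 rose more in M1 than in M0 (0.68). These 5 differences from M0 were called in every fit that left out 1 library, as were those between M1 and M2 for Fads1 (-0.30), Dhcr7 and Sc5d (0.28, a smaller fall in M1). That of Fads1 was lost when the libraries of the comparison were fitted alone (-0.19). In those fits the calls of Mvk (-0.35), Fdps (-1.02), Elovl6 (-0.54), Fads1 (-0.18) and Srebf2 (-0.16) for M1 minus M0 were also lost. For M1 minus M2 those of Lss (-0.23), Stard4 (-0.24) and Scap (-0.24) were lost too. Calls gained there were Sc5d (0.30) and Acaca (0.33) for M1 minus M0 and Hmgcs1 (0.47) for M1 minus M2. For M2 minus M0, Fdft1 (-0.35) and Scd2 (-0.29) were gained. The remaining called differences of the main fit were lost in at least 1 fit that left out 1 library. The smallest value among those fits is given with the library left out. For M1 against M0 they were Mvk (-0.44; -0.37 without M1 replicate 2), Fdps (-1.11; -0.92 without M0 with ONX-0914 replicate 3), Elovl6 (-0.63; -0.45 without M1 with ONX-0914 replicate 1), Fads1 (-0.27; -0.23 without M1 with ONX-0914 replicate 4) and Srebf2 (-0.25; -0.22 without M0 with ONX-0914 replicate 2). For M2 against M0 they were Hmgcs1 (-0.46; -0.41 without M2 replicate 2) and Elovl6 (-0.66; -0.59 without M0 replicate 1). For M1 against M2 they were Lss (-0.34; -0.29 without M2 replicate 4), Stard4 (-0.35; -0.31 without M1 with ONX-0914 replicate 1), Lpin1 (0.57; 0.44 without M1 replicate 1) and Scap (-0.35; -0.30 without M2 replicate 1).

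Without M1 replicate 2, further differences were called: Hmgcs1 (-0.23), Idi1 (-0.52), Cyp51 (-0.22) and Insig1 (-0.18) between M1 and M0, Fdft1 (-0.32) and Scd2 (-0.26) between M2 and M0, and Scd1 (-0.40) between M1 and M2. Over the 14899 genes of that fit, M1 minus M0 was called higher for 1425 and lower for 2304. For M2 minus M0 these were 949 and 723, and for M1 minus M2 766 and 1810. In the main fit of 14692 genes they were 1014 and 1820, 505 and 402, and 559 and 1422.

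Genes around the programme were followed in 5 further lists. Their counts stand beside the shares of all genes tested, of which 9.54% rose and 11.4% fell with ONX-0914 in M0, 16.6% and 27.7% in M1, and 17.6% and 18.8% in M2, and 34.6% rose and 34.2% fell in M1 against M0. Of 11 tested genes for SREBP proteases and INSIG-linked degradation, 2 rose and 2 fell with ONX-0914 in M0, 3 and 5 in M1, and 3 and 3 in M2. Ufd1, a cofactor of the p97 ATPase in degradation from the endoplasmic reticulum, rose from 43.3 ± 2.94 to 75.8 ± 0.184 CPM in M0, from 63.7 ± 4.50 to 174 ± 9.28 CPM in M1 and from 45.9 ± 1.86 to 108 ± 3.37 CPM in M2 (SD, n = 4). Erlin2, of an endoplasmic reticulum complex that binds cholesterol, fell by 0.28, 0.57 and 0.53 in M0, M1 and M2. Erlin1, its partner, fell by 0.58 in M1 and 0.52 in M2 and was at -0.18 in M0. In M1 against M0, 8 of the 11 rose and 1 fell. The ubiquitin ligase gene Rnf145 was at 41.3 to 44.0 CPM in M0 and 107 to 113 CPM in M1 (log2 change 1.34), and Rnf139 was at 27.9 to 30.4 and 46.7 to 86.7 CPM (1.33).

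Of 12 genes of the non-sterol branches of the mevalonate pathway, which make prenyl groups, dolichol and ubiquinone, 2 rose and 1 fell with ONX-0914 in M0, 4 and 3 in M1, and 5 and 2 in M2. Rabggtb, a subunit of the enzyme that prenylates Rab proteins, rose from 32.0 ± 1.02 to 46.1 ± 2.12 CPM in M0, from 36.7 ± 1.94 to 80.7 ± 3.33 CPM in M1 and from 34.8 ± 1.09 to 59.8 ± 1.04 CPM in M2. Pdss1, which makes the side chain of ubiquinone, rose in M1 against M0 from 2.13 ± 0.192 to 8.80 ± 1.16 CPM.

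Of 18 other genes of fatty acid synthesis, elongation and activation, 2 rose and 7 fell with the inhibitor in M0, 1 and 9 in M1, and 1 and 8 in M2. Mid1ip1, a partner of acetyl-CoA carboxylase, fell from 83.3 ± 1.09 to 66.5 ± 2.36 CPM in M0, from 26.4 ± 2.21 to 16.8 ± 0.834 CPM in M1 and from 44.1 ± 1.67 to 27.5 ± 1.90 CPM in M2. Elovl5, an elongase of polyunsaturated fatty acids, fell by 0.19, 0.69 and 0.48 on the log2 scale. Me1, the malic enzyme that supplies NADPH, moved the other way, from 6.68 ± 0.952 to 17.2 ± 1.78 CPM in M0, from 5.91 ± 0.963 to 34.2 ± 1.89 CPM in M1 and from 4.23 ± 0.619 to 22.9 ± 2.63 CPM in M2. Acsl1, which activates fatty acids, rose from 50.2 ± 1.11 CPM in M0 to 676 ± 16.5 CPM in M1 and was at 435 ± 12.7 CPM in M1 with ONX-0914.

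Of 7 genes of oxysterol synthesis and the liver X receptors, 5 rose and 1 fell in M1 against M0. With ONX-0914, 1 rose and 2 fell in M0, 0 and 4 in M1, and 3 and 2 in M2. The effect was lower in M1 than in M2 for 7 of the 7 (13.5% of all genes differed in either direction). Over all genes, this difference was called higher for 559 and lower for 1422. With the libraries of the comparison alone these were 885 and 647. Ch25h makes 25-hydroxycholesterol, which is known to hold SREBPs in the endoplasmic reticulum. It was at 1.12 to 1.72 CPM in M0, 86.5 to 108 CPM in M1 and 6.50 to 9.45 CPM in M2, log2 changes of 6.10 ± 0.15 and 2.50 ± 0.17. With ONX-0914 it fell in M1 to 52.8 to 57.0 CPM (-0.83 ± 0.10) and did not pass the test in M0 (0.46) or M2 (0.27). It was called higher in M0 without M0 with ONX-0914 replicate 3 (0.68), and in M2 under 4 alternatives (0.26 to 0.36). Nr1h3, which encodes LXRα, rose in M1 by 1.71 and fell with ONX-0914 by 1.27 in M1, 0.64 in M2 and 0.22 in M0, where the call was lost without M0 replicate 1 (-0.20), M0 replicate 3 (-0.21) or M0 with ONX-0914 replicate 4 (-0.18). Of 8 genes of sterol storage and lysosomal release, 1 rose and 6 fell in M1 against M0, led by the lysosomal acid lipase gene Lipa (-1.82), Nceh1 (-1.27) and the cholesterol acyltransferase gene Soat1 (-1.12). With the inhibitor 0 rose and 3 fell in M0, 1 and 3 in M1, and 1 and 4 in M2. Tmem97, a known sterol-responsive gene, fell by 0.50, 1.01 and 0.75, and Npc1, which exports lysosomal cholesterol, fell by 0.26 in M0, 0.20 in M1 and 0.37 in M2, of which the call in M1 was lost with the M1 libraries alone (-0.10). Nfe2l1, a membrane-bound regulator of proteasome genes with a role in cholesterol sensing, fell by 0.51 in M0 and M2 and by 0.28 in M1, where the call was lost with the M1 libraries alone (-0.18).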

How the data were processed

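RNA of 24 libraries of mouse peritoneal macrophages was sequenced in paired reads. The authors deposited a table of raw counts per Ensembl gene, not normalized; per the submitters' processing notes it was made with FastQC 0.11.9, cutadapt 2.8, Bowtie2 2.2.5 and Picard on build mm10. Which tool counted the reads, with which strand setting and annotation, is not given in the sources used here. Symbols and positions came from GENCODE M21 (GRCm38), which matched 54495 of 54532 features; the 37 others held 0.00253% of counts. Groups were taken from the sample labels.

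From these counts, edgeR 4.0.16 (R 4.3.3) filtered low genes with filterByExpr, scaled libraries by TMM and fitted all 24 libraries with 1 mean per group (18 residual degrees of freedom), so that all groups share one estimate of the spread. Quasi-likelihood tests gave log2 changes, with the SE computed as the size of the log2 change over the square root of F, and p-values adjusted over 14692 genes by Benjamini-Hochberg. Levels are TMM-scaled CPM, divided by exon length where genes are compared. Values of the arms used log2(CPM + 0.5).

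The members and lists were chosen with earlier results of these data known. The text names all 34 members, up to 4 called genes per other list and comparison with the largest change, and Ch25h and Nfe2l1 whatever their result. The symbol Spring1, of the list of SREBP proteases, was not matched. The test was checked on counts simulated for ONX-0914 in M0 over 14692 genes. Of 50 genes planted at each size, 20 were recovered for a fold of 1.25, 38 for 1.5, 46 for 2 and 48 for 4. Unchanged genes made up 2 of 154 calls. The planted genes were drawn from those above a minimum expected count in M0, and all other genes were equal in all groups. The real comparison called 1401 genes higher and 1678 lower, so its threshold for a call was not that of the simulation. The shares recovered are thus not those of the real tests. Alternatives were DESeq2 size factors, the DESeq2 1.42.0 Wald test, limma 3.58.1 voom with quality weights, other count filters, the libraries of a comparison alone, a minimum change of 1.2-fold, a replicate block and leaving out each library.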

Additional observations from a re-analysis of the deposited data

Results flagged for a closer look

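Some libraries lay far from the other 3 of their group by Dixon's test at the 95% level. This held for 8 of 204 sets of 4 libraries, where chance gives about 10.2. M1 replicate 2 accounted for 4 of them: it was the lowest library for Hmgcs1 (43.1 CPM, next 63.9) and Cyp51 (55.9, next 72.1) and the highest for Ebp (42.4, next 38.3) and Srebf1 (86.2, next 71.7). M0 replicate 4 was the highest for Fasn (73.5 CPM, next 57.8) and Fads1 (88.4, next 77.3). M2 with ONX-0914 replicate 4 was the highest for Hmgcs1 (45.3 CPM, next 42.9), and M0 with ONX-0914 replicate 2 the lowest for Insig2 (29.5, next 31.5).

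The effect of ONX-0914 differed between states, by the test of the difference itself, for the following genes, as differences of log2 changes. For M1 minus M0 these were Mvk (-0.44), Fdps (-1.11), Fdft1 (-0.46), Dhcr7 (-0.84), Stard4 (-0.59), Elovl6 (-0.63), Scd2 (-0.46), Fads1 (-0.27), Lpin1 (0.68) and Srebf2 (-0.25). For M2 minus M0 they were Hmgcs1 (-0.46) and Elovl6 (-0.66). For M1 minus M2 they were Lss (-0.34), Sc5d (0.28), Dhcr7 (-0.70), Stard4 (-0.35), Fads1 (-0.30), Lpin1 (0.57) and Scap (-0.35).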

How the results depend on the processing

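Each of 272 values (34 genes in 8 comparisons) was recomputed under 32 alternatives. Of the 8704 recomputed values, 8429 kept their side of the threshold, 182 lost the call and 93 gained one. Among values called in the main fit or in the alternative, 0 changed sign. A value called in neither could change sign, as Idi1 did in M1 against M0, and was counted as kept. The median change of the sterol arm with ONX-0914 in M1 was -0.80 with limma voom, -0.59 with the M1 libraries alone and -0.80 to -0.65 when 1 library was left out. That in M2 was -0.74 to -0.66 with 1 library left out. For M1 against M0 it was -0.43 with the libraries alone and -0.44 to -0.33 with 1 left out, and for M2 against M0 it was 0.019 to 0.095 with 1 left out. With a minimum change of 1.2-fold, 18, 25 and 19 members were lower with ONX-0914 in M0, M1 and M2, where 254, 2026 and 1020 of 14692 genes were. In M2 0 members were higher with ONX-0914, where 1103 of all genes were. In M1 against M0 0 members were higher, where 3940 of all genes were. In M2 against M0 1 was higher and 4 were lower, where 1205 and 1168 of all genes were. For M1 minus M0, M2 minus M0 and M1 minus M2, 3, 0 and 1 members differed in effect. Over all genes these were 398 higher and 723 lower, 100 and 95, and 187 and 449. With limma voom 2 members were higher with ONX-0914 in M2, where 3271 of 14692 genes were. For M2 minus M0 6 members differed, where 1041 of all genes were higher and 806 lower. With the libraries alone 1 member was higher in M1 against M0, where 4219 of 13497 genes were. There 4 members differed for M2 minus M0, where 721 of 14260 genes were higher and 869 lower. Another 4 differed for M1 minus M2, where 885 of 14177 genes were higher and 647 lower. Without the count filter 6 members differed for M1 minus M0, where 1020 of 28971 genes were higher and 1449 lower. For M1 minus M2 4 differed, where 570 of all genes were higher and 1178 lower. With 1 library left out, 7 to 13 members differed for M1 minus M0, 0 to 4 for M2 minus M0 and 4 to 8 for M1 minus M2, and 7 to 13 were lower in M2 against M0. Without M1 replicate 2 the member counts for the 3 differences were 13, 4 and 8. Over all 14899 genes of that fit, 1425, 949 and 766 were higher and 2304, 723 and 1810 lower. Over all genes, the split for M1 minus M0 was 1014 higher and 1820 lower, and 1305 and 1040 with the libraries alone.

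The replicate numbers were not taken to pair the libraries, since the labels used here state no pairing. The correlations that follow do not exclude a pairing. Deviations of same-numbered libraries had a mean correlation of 0.020 with 6 of 60 pairs over 0.1, against -0.0066 with 5 of 180 for different numbers, and 10 of 24 libraries were closest to their own number. With a replicate block, 24, 30 and 26 members were lower with ONX-0914 in M0, M1 and M2, where 1710, 4078 and 2776 of 14692 genes were. In M1 against M0 22 were lower and 3 higher, where 5056 and 5095 of all genes were. In M2 against M0 10 were lower and 4 higher, where 2598 and 2766 of all genes were. For M1 minus M0, M2 minus M0 and M1 minus M2, 11, 2 and 7 members differed in effect. Over all genes these were 1032 higher and 1855 lower, 546 and 433, and 584 and 1462.

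Genes near 1 CPM, such as Fdps, rest on few counts. The labels call the replicates independent, but the mice behind each pool are not described further. RNA levels alone were measured, and the cause of each change with the processing was not tested.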
